A study of Mus musculus with 3 samples.

Results

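Transcripts of 8 genes of the interleukin 17 pathway were followed in single immune cells of the mouse infrarenal aorta, which is the stretch of the vessel that runs below the arteries to the kidneys. The genes were listed by name, but earlier results of these data were known when the list was made. Their counts beside all genes are therefore a description. The list holds the cytokines Il17a and Il17f, the receptor subunit Il17ra, the interleukin 23 receptor Il23r, the transcription factor Rora, the chemokine receptor Ccr6, and the membrane protein genes Tmem176a and Tmem176b. All 8 were found once among the 32285 genes of the deposited tables. There were 3 libraries, and every animal is labelled Wild type, with no strain, age or sex in the labels. Sham aortas were labelled as induced with PBS (phosphate-buffered saline) and AAA_14 aortas with elastase, an enzyme that breaks down elastic fibres and is used to make an abdominal aortic aneurysm (AAA). For AAA_7 the title and the treatment label disagree, since the title is that of an aneurysm library and the label gives PBS. It is referred to by its title throughout, and its treatment is in doubt. The unit of the 7 and the 14 is not given in the labels. CD45-positive cells were taken with CD45 and viability microbeads after enzymatic digestion, and the cells of all aortas of a group were mixed (20 AAA and 50 control aortas, with no number for AAA_7 itself). Each group was therefore 1 library, so that no difference has a replicate check, no test between groups was possible, and every interval given (95%) covers counting error only. Intervals over transcript counts also treat the molecules of 1 cell as independent, so they are too narrow where few cells hold most of them.

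Interleukins 17A and 17F are secreted cytokines that act on epithelial, stromal and myeloid cells, where they raise chemokines and other proteins that draw in neutrophils. They are made by gamma-delta T cells, by CD4-positive T helper 17 cells and by some innate lymphoid cells, in which interleukin 23 and interleukin 1 signals and the ROR family of nuclear receptors keep the cytokine genes active. The vessel wall normally holds few such cells, and the pathway is known mainly from barrier tissues and from inflamed ones.

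After barcodes with under 200 detected genes or over 10% of UMIs (unique molecular identifiers, the molecules counted) from mitochondrial genes were left out, 1235 Sham, 3229 AAA_7 and 5286 AAA_14 cells remained, with 5986174, 13035383 and 51007459 UMIs. These filters removed 67.4%, 7.64% and 47.7% of the barcodes, and the median mitochondrial share of the kept cells was 8.39%, 0.989% and 6.51%. Median depth was 3659, 2581 and 6967.5 UMIs per cell, so shares of cells are also given after thinning every cell to 1000 UMIs, which left out 12, 251 and 47 shallower cells. Between 1 and 8 cell barcodes were shared by any pair of libraries after filtering. Cells were grouped into clusters without the 8 genes and named from fixed marker genes, as X-like. T-like cells made up 36.0%, 17.7% and 17.9% of the cells, while stromal-like cells, which lack CD45, were 0.243%, 0.496% and 1.59%. Cells were also sorted by transcripts into 3 gates, where the first gate that a cell met decided: cells with 2 or more UMIs of Trdc (the constant region of the T cell receptor delta chain) and Cd163l1 (a receptor gene typical of gamma-delta T cells) together, called Trdc/Cd163l1 cells (22, 49 and 96 cells), other cells with at least 1 Cd4 UMI, called Cd4 cells (140, 227 and 747), and all remaining cells (1073, 2953 and 4443). The gates are not cell types. T-like clusters held 81.8%, 75.5% and 81.3% of the Trdc/Cd163l1 cells and 75.7%, 52.9% and 56.9% of the Cd4 cells, and phagocyte-like clusters held 30.4% of the Cd4 cells of AAA_7 and 17.8% of those of AAA_14.

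Il17a (ENSMUSG00000025929) lies on the forward strand at chr1:20730905-20734496 of GRCm38, and Il17f (ENSMUSG00000041872) 42649 bases away on the reverse strand at chr1:20777146-20790617. Il23r (ENSMUSG00000049093) is at chr6:67422932-67491855 on the reverse strand, Ccr6 (ENSMUSG00000040899) at chr17:8236043-8257141 on the forward strand, Rora (ENSMUSG00000032238) at chr9:68653786-69388246 on the forward strand and Il17ra (ENSMUSG00000002897) at chr6:120463247-120487559 on the forward strand. Tmem176a (ENSMUSG00000023367, chr6:48840919-48847071, forward strand) and Tmem176b (ENSMUSG00000029810, chr6:48833818-48841496, reverse strand) lie head to head with overlapping gene models. The assay reads the 3' ends, which lie at opposite sides of this pair, but how strand was used in counting is not given in the sources used here. All 8 are protein-coding. The 250 bases before the RefSeq start sites (build GRCm38.p6) were searched for AGGTCA on either strand, which reads TGACCT on the strand shown where the match is on the other one, since this is the core of the half-site known to be bound by ROR receptors, the family to which Rora belongs. It was found in 4 of the 11 windows of the 7 members with a window, against 4607 of 32851 windows of all genes (14.0%). These 4 windows belong to both cytokine genes, Il23r and Ccr6, and are shown because Il17a, Il17f and Il23r were found mostly in the same T-like clusters as Rora. Capitals mark the match. None of the windows of Rora, Tmem176a and Tmem176b held these letters.
Il17a, chr1:20730655-20730904, forward strand: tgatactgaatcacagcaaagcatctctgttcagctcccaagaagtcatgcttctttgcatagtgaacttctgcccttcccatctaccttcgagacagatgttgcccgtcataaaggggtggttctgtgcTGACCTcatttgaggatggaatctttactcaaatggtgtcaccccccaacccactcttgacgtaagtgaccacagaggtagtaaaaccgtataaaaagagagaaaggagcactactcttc
Il17f, chr1:20784271-20784520, reverse strand: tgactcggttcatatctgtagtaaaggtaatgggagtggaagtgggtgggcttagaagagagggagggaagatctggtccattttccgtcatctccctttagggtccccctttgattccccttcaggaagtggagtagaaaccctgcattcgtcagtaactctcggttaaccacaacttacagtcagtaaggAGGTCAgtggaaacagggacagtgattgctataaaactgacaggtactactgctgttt
Il23r, chr6:67491856-67492105, reverse strand: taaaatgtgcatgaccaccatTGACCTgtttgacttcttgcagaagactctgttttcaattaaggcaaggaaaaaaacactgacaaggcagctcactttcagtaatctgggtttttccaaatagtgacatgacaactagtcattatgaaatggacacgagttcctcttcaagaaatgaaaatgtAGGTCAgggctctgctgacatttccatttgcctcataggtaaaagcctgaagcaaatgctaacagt
Ccr6, chr17:8235793-8236042, forward strand: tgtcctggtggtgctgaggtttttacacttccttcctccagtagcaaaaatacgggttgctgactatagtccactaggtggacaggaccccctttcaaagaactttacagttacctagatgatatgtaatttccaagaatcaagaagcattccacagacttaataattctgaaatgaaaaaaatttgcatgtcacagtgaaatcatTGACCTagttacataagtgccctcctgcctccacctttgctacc
Counted from the start site, the match covers positions -120 to -115 in Il17a, -58 to -53 in Il17f and -44 to -39 in Ccr6. Il23r has a pair of matches, the nearer at -66 to -61 and the other beginning at -229. The Il17f window belongs to a RefSeq start at 20784270, inside the longer GENCODE gene model. A match is a string of letters in these windows, and no binding was measured.

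Over all cells, Il17a and the Tmem176 genes were higher than in Sham in both libraries titled AAA, with log2 ratios of 2.44 or more, whereas Il17ra, Rora and Ccr6 differed by less, and Il17f rested on 1 Sham UMI. Counts were scaled to the total UMIs of the library (counts per 1000000, CPM), and log2 ratios of CPM were taken with 0.5 counts added. In AAA_14 against Sham, 4 of the 8 genes (Il17a, Il17f, Tmem176a and Tmem176b) were at least 2-fold higher, where 29.9% of the 16010 genes with 10 or more UMIs were, and 0 of 8 were at least 2-fold lower, where 8.54% of all genes were. In AAA_7 against Sham, 5 of 8 were at least 2-fold higher (the same 4 and Rora), against 26.8% of 13717 genes, and 0 of 8 lower, against 10.3%. Between AAA_14 and AAA_7, 0 of 8 were at least 2-fold higher and 0 of 8 lower, against 11.2% and 6.09% of 16136 genes. The median log2 ratio of the 8 was 1.503, 1.80 and 0.04 in the 3 comparisons, against 0.37, 0.23 and 0.10 over all genes. AAA_14 and AAA_7 share the Sham library as their control, so their ratios over Sham are not independent of each other.

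**Figure D1:**
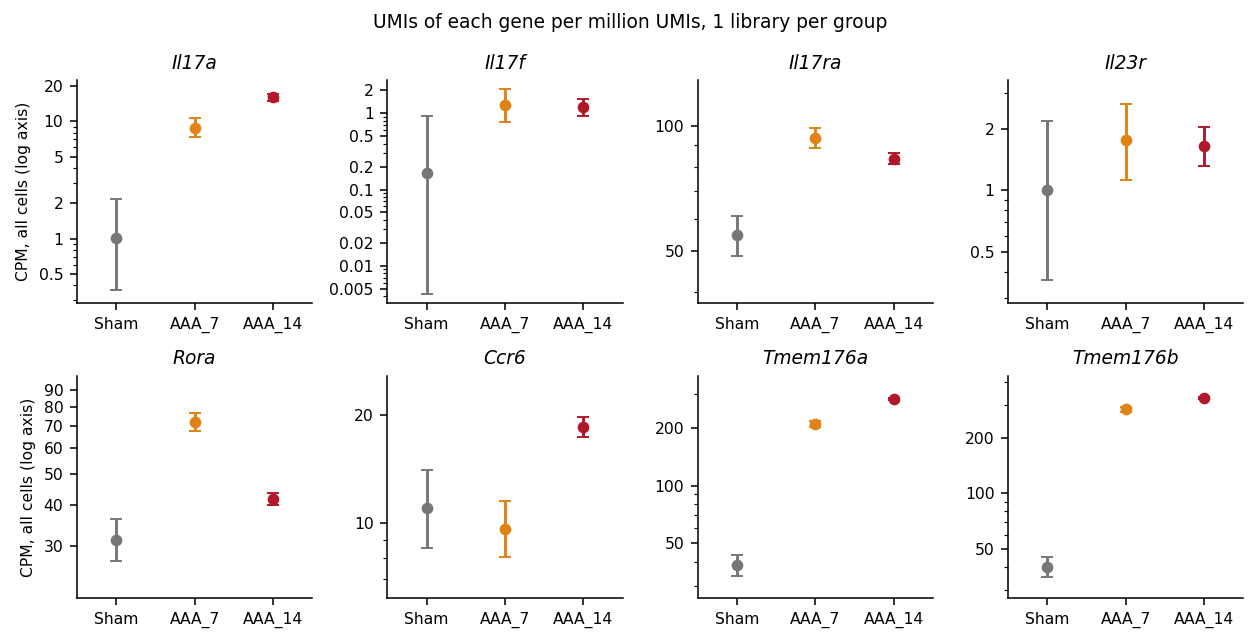
CPM of each of the 8 genes over all kept cells of the Sham, AAA_7 and AAA_14 libraries (log axes that differ between panels, bars: 95% Poisson intervals, 1 library per group). Il17a is at 1.00, 8.82 and 16.04 CPM, Tmem176b at 40.3, 284 and 326 CPM, while Rora is highest in AAA_7 and Ccr6 in AAA_14.

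Il17a, the cytokine gene that gives the pathway its name, had 6, 115 and 818 UMIs in Sham, AAA_7 and AAA_14, which is 1.00, 8.82 and 16.04 CPM. The 3 intervals (0.368 to 2.18, 7.28 to 10.6 and 14.96 to 17.2 CPM) do not overlap, but they treat the UMIs of 1 cell as independent. Counted by cells, the intervals for the share with an Il17a UMI overlap between AAA_7 (0.427 to 1.03%) and AAA_14 (0.984 to 1.61%). The log2 ratio was 3.89 (2.87 to 5.45) for AAA_14 over Sham, 3.03 (1.97 to 4.61) for AAA_7 over Sham and 0.86 (0.58 to 1.16) for AAA_14 over AAA_7. The order of the libraries titled AAA turned at a stricter mitochondrial limit. With at most 5% mitochondrial UMIs, which kept 136 Sham, 3029 AAA_7 and 1583 AAA_14 cells, Il17a had 0 UMIs in Sham and reached 9.10 CPM in AAA_7 against 6.34 CPM in AAA_14, a log2 ratio of -0.52 (-0.88 to -0.16) for AAA_14 over AAA_7, with 14 positive cells left in AAA_14. With a limit of 20%, the levels were 1.17, 9.32 and 14.0 CPM.

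Il17a was found in few cells, and the number of its molecules per positive cell varied widely. It was found in 2 of 1235 Sham cells (0.162%, exact Clopper-Pearson interval 0.0196 to 0.584%), 22 of 3229 AAA_7 cells (0.681%, 0.427 to 1.03%) and 67 of 5286 AAA_14 cells (1.27%, 0.984 to 1.61%). After thinning the shares were 0%, 0.470% and 0.649%. B-like cells, which should lack the gene, gave 0 of 418, 1 of 456 and 2 of 1267 cells, with median depths of 2362.5, 1811.5 and 4395 UMIs against 4349, 2716.5 and 6261 in T-like cells. A positive cell held 2 or 4 UMIs in Sham, 1 to 15 (median 4) in AAA_7 and 1 to 77 (median 5) in AAA_14. In AAA_14 the 5 highest cells held 307 of the 818 UMIs (37.5%) and 18 of the 67 cells had a single UMI.

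**Figure D2:**
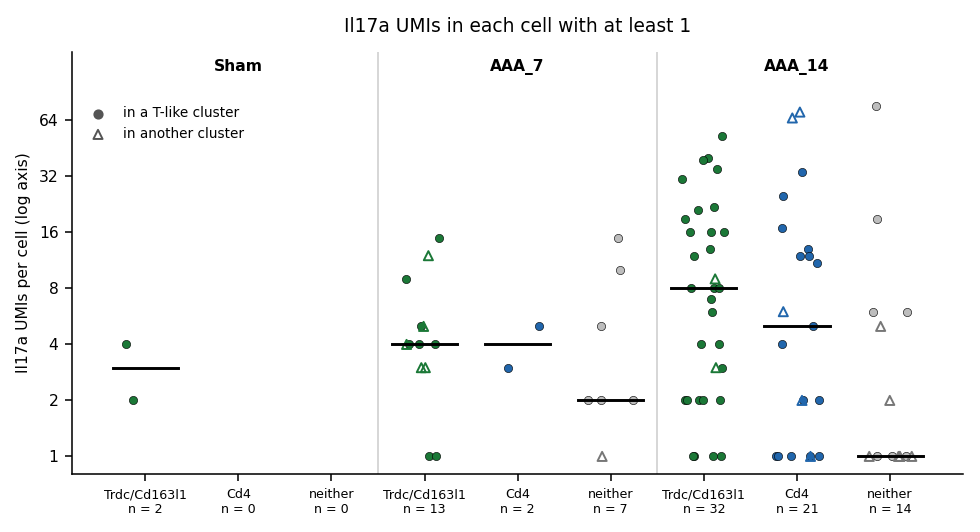
Il17a UMIs in every cell with at least 1, by library and gate (log axis, n: cells, horizontal lines: medians, filled circles: cells in T-like clusters, triangles: cells in other clusters). The Trdc/Cd163l1 cells of AAA_14 have a median of 8 UMIs and its Cd4 cells 5, and the cell with 77 UMIs is in neither gate.

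Trdc/Cd163l1 cells carried all 6 Sham UMIs of Il17a, 70 of 115 in AAA_7 (60.9%, 51.3 to 69.8%) and 407 of 818 in AAA_14 (49.8%, 46.3 to 53.2%). Cd4 cells carried 0 in Sham, 8 in AAA_7 (6.96%) and 288 in AAA_14 (35.2%, 31.9 to 38.6%), and the remaining cells 0, 37 (32.2%) and 123 (15.04%). The UMI-share intervals of the libraries titled AAA overlap for Trdc/Cd163l1 cells, and in T-like cells only the share was 49.4% in AAA_7 and 61.0% in AAA_14. Within Trdc/Cd163l1 cells Il17a was at 61.6, 418 and 484 CPM, and AAA_14 and AAA_7 did not differ beyond counting error (log2 ratio 0.21, -0.16 to 0.60). Within Cd4 cells it was at 0, 5.64 and 36.8 CPM, a log2 ratio of 2.62 (1.71 to 3.93) for AAA_14 over AAA_7, while the shares of Cd4 cells with a UMI overlap (0.107 to 3.15% and 1.75 to 4.27%). Those 288 UMIs of AAA_14 lay in 21 cells, of which 16 T-like cells held 142 UMIs, 2 DC-like (dendritic cell-like) cells held 67 and 3 cells of cluster 17 held 79, with 71 of these in 1 cell. Cluster 17 had no cell type name, because its score over the B-like marker genes (1.44) was close to that over the T-like ones (1.61). Of its 151 cells, 126 (83.4%) held both Cd3e, a T cell gene, and Cd79a, a B cell gene.

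The share of gated cells with an Il17a UMI was 9.09%, 26.5% and 33.3% for Trdc/Cd163l1 cells (2 of 22, 13 of 49 and 32 of 96). Among Cd4 cells it was 0 of 140 (which allows a share of up to 2.14% of cells with a UMI, not of cells that express the gene), 2 of 227 (0.881%) and 21 of 747 (2.81%). Most positive cells were T cells by their clusters: 2 of 2 in Sham, 16 of 22 in AAA_7 and 53 of 67 in AAA_14 were T-like. NK-like (natural killer-like) cells, 13.6%, 14.3% and 10.4% of the Trdc/Cd163l1 gate, gave 0 Il17a UMIs in 90, 168 and 101 cells, which limits the share of cells with a detected UMI at these depths to 3.33%, 1.79% and 2.97%. The 14 positive AAA_14 cells outside T-like clusters include 4 DC-like cells, whose medians by gate were 37102 and 34763.5 UMIs where the class had 14388. The part of doublets or of free RNA in these 14 cells was not tested.

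Within T-like cells Il17a reached 2.35, 43.9 and 90.2 CPM, log2 ratios over Sham of 4.12 (3.04 to 5.71) and 5.15 (4.13 to 6.71). Cluster 18, a T-like cluster led by Cd163l1, Trdc and Tcrg-C1, the constant region of a gamma chain, held 6 of 6, 45 of 87 and 421 of 648 of these UMIs in 6, 46 and 89 cells. Cluster 7, led by Ctla4, Ikzf2 and Icos, which are genes of activated and regulatory CD4 T cells, held 0, 40 and 144 UMIs. Cluster 24, a cycling cluster led by histone genes, held 80 in AAA_14, of which 77 lay in 1 cell. Cluster 1, led by Lef1, Dapl1 and Tcf7 as in naive T cells, held 330 of 444, 210 of 572 and 435 of 945 T-like cells in Sham, AAA_7 and AAA_14, and 0, 0 and 2 Il17a UMIs. The part of this makeup of the T-like cells in the ratios was not tested. Without cluster 18, 0, 42 and 227 Il17a UMIs were left in the T-like cells of the 3 libraries.

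Il17f, whose protein pairs with interleukin 17A or with itself, was found in few cells, and in AAA_14 most of its UMIs lay in Cd4 cells. It had 1, 17 and 61 UMIs in 1, 6 and 15 cells, which is 0.167, 1.304 and 1.20 CPM, with log2 ratios over Sham of 2.27 (0.31 to 8.17) in AAA_14 and 2.42 (0.29 to 8.35) in AAA_7. With 1 Sham UMI the ratio has almost no upper bound, and at the 5% mitochondrial limit, where Sham had 0 UMIs, the value for AAA_14 was -1.64 (lower bound -5.11, no upper bound). The libraries titled AAA did not differ beyond counting error (-0.16, -0.92 to 0.74). In AAA_7 the gates held 7, 6 and 4 of its 17 UMIs. In AAA_14, Cd4 cells carried 45 of the 61 UMIs (73.8%, 60.9 to 84.2%) and Trdc/Cd163l1 cells 12 (19.7%, 10.6 to 31.8%). These shares rest on few cells, since the 45 UMIs lay in 8 cells, and an interval over UMIs treats those of 1 cell as independent. Counted by cells, Cd4 cells were 53.3% (26.6 to 78.7%) of the Il17f-positive cells and 31.3% (20.6 to 43.8%) of the Il17a-positive cells of AAA_14, and these intervals overlap. Cluster 7 held 39 of the 53 Il17f UMIs of AAA_14 T-like cells (73.6%) and cluster 18 held 13. Of 15 Il17f-positive AAA_14 cells 6 also held Il17a, which is 9.0% of the 67 Il17a-positive cells and 40.0% of the Il17f-positive ones. In AAA_7 it was 4 of 6 Il17f-positive cells (66.7%), or 18.2% of the 22 Il17a-positive ones.

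**Figure D3:**
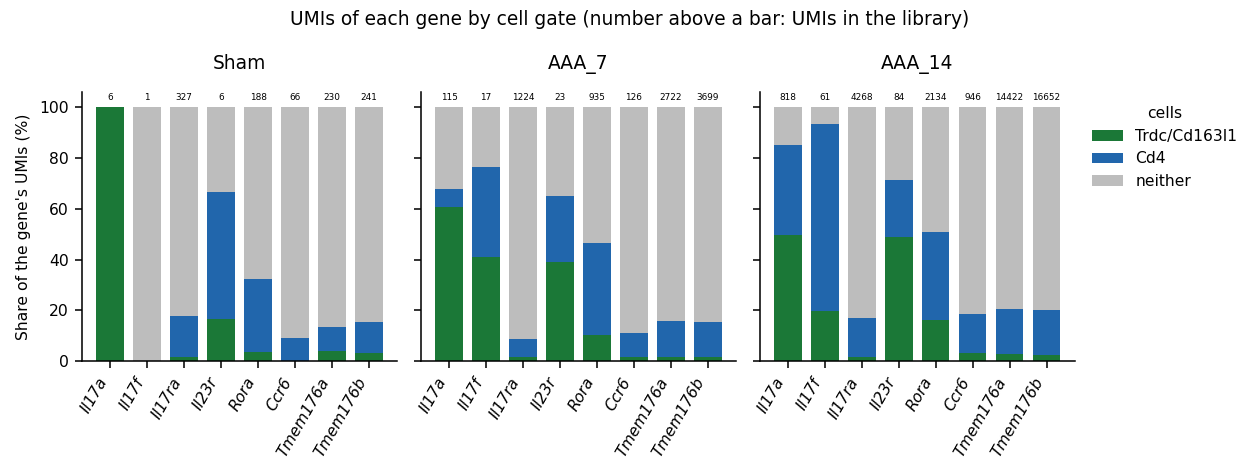
Share of the UMIs of each gene in Trdc/Cd163l1 cells, Cd4 cells and all remaining cells, by library (numbers above bars: UMIs of the gene in the library). In AAA_14 the Trdc/Cd163l1 share is 49.8% for Il17a, 19.7% for Il17f and 48.8% for Il23r, whereas 83.1% of Il17ra UMIs lie in the remaining cells.

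Il17ra, the receptor subunit shared by several interleukin 17 cytokines, was found in every class of cells with at least 50 members and was highest in neutrophil-like cells. It had 327, 1224 and 4268 UMIs (54.6, 93.9 and 83.7 CPM), with UMIs in 20.5%, 25.9% and 44.3% of cells and in 6.54%, 10.3% and 10.0% after thinning. Sham was the lowest library. The log2 ratio over Sham was 0.61 (0.45 to 0.78) in AAA_14 and 0.78 (0.60 to 0.96) in AAA_7. Relative to the median of all genes these are 0.24 and 0.55, and at the 5% mitochondrial limit the ratio of AAA_14 to Sham was -0.43 (-0.82 to 0.01). In neutrophil-like cells the level was 102.03, 172 and 190 CPM, with a log2 ratio of 0.88 (0.50 to 1.32) for AAA_14 over Sham. Next in AAA_14 came pDC-like (plasmacytoid dendritic cell-like) cells at 110 CPM, a log2 difference of 0.78 (0.44 to 1.15) below neutrophil-like cells. From pDC-like cells down the order to DC-like cells (54.3 CPM) no class differed from its neighbour beyond counting error, and stromal-like (29.8 CPM) and plasma cell-like cells (25.1 CPM) were lowest. In phagocyte-like cells Il17ra was 45.9 CPM in AAA_7 and 76.4 CPM in AAA_14, a log2 ratio of 0.73 (0.48 to 1.00), and Sham held 14 phagocyte-like cells, too few to compare.

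Il23r, the receptor subunit that binds interleukin 23, had 6, 23 and 84 UMIs in 3, 20 and 63 cells (1.00, 1.76 and 1.65 CPM). No pair of libraries differed beyond counting error over all cells. The ratios over Sham were 0.61 (-0.47 to 2.20) and 0.73 (-0.52 to 2.40). Within T-like cells it was at 1.17, 9.58 and 9.32 CPM, a log2 ratio over Sham of 2.84 (1.26 to 5.43) in AAA_7 and 2.78 (1.38 to 5.30) in AAA_14. Trdc/Cd163l1 cells carried 41 of the 84 AAA_14 UMIs (48.8%) and Cd4 cells 19 (22.6%). Cluster 18 held 53 of the 67 UMIs of T-like cells in AAA_14 (79.1%), and 41.6% of its cells had an Il23r UMI, against 2.92% of cluster 7. Outside T-like cells the highest level in AAA_14 was in cluster 20 (9 UMIs, 16.2 CPM), a cluster of 81 cells there that stayed unnamed and was led by Cpa3, Csf2, Il1rl1, Areg and Gata3, which mast cells and type 2 innate lymphoid cells are known for. T-like cells and cluster 20 did not differ beyond counting error.

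Rora encodes ROR alpha, a nuclear receptor found in interleukin 17-producing cells and also needed by type 2 innate lymphoid cells. It was higher in AAA_7 than in either other library. The 3 libraries had 188, 935 and 2134 UMIs (31.4, 71.7 and 41.8 CPM), with log2 ratios of 1.19 (0.96 to 1.43) for AAA_7 over Sham, 0.41 (0.20 to 0.64) for AAA_14 over Sham and -0.78 (-0.89 to -0.67) for AAA_14 over AAA_7. Relative to the median of all genes the AAA_14 ratio over Sham was 0.04. Within T-like cells the level was 35.2, 333 and 177 CPM, so that both libraries titled AAA exceeded Sham by log2 ratios of 3.23 (2.92 to 3.58) and 2.32 (2.02 to 2.65). Cd4 cells differed most between the libraries titled AAA, at 239 CPM in AAA_7 and 94.6 in AAA_14 (-1.34, -1.52 to -1.15), and T-like cells held 89.7% and 85.8% of those UMIs. In Trdc/Cd163l1 cells the level was 71.9, 573 and 408 CPM, and Rora was found in 13.6%, 67.3% and 67.7% of them. By class, cluster 20 was highest in AAA_14 (645 CPM), followed by T-like cells (177 CPM), stromal-like cells (95.3 CPM) and cluster 17 (61.2 CPM), and each of these differed from the next beyond counting error.

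Ccr6, the receptor for the chemokine CCL20, is known from both T helper 17 cells and B cells, and in these libraries it was mainly a B cell transcript. It had 66, 126 and 946 UMIs (11.0, 9.67 and 18.5 CPM), and the B-like clusters held the highest level in every library, at 34.2, 84.5 and 66.1 CPM. Within B-like cells the log2 ratio over Sham was 1.29 (0.76 to 1.87) in AAA_7 and 0.93 (0.50 to 1.43) in AAA_14. Over all cells AAA_7 and Sham did not differ beyond counting error, whereas AAA_14 was above Sham (0.74, 0.39 to 1.13) and above AAA_7 (0.94, 0.67 to 1.22). That last order turned at the 5% mitochondrial limit (-0.91, -1.29 to -0.53). T-like cells held 5, 18 and 137 UMIs, at 1.96, 9.07 and 19.1 CPM. Of the 96 Trdc/Cd163l1 cells of AAA_14, 18.8% had a Ccr6 UMI, against 10.0% of Cd4 cells and 9.43% of the remaining cells.

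Tmem176a and Tmem176b encode paired membrane channel proteins of inner cell compartments, known from dendritic cells and from type 17 lymphocytes. Their levels went together across libraries. Tmem176a had 230, 2722 and 14422 UMIs (38.4, 209 and 283 CPM), a log2 ratio over Sham of 2.88 (2.69 to 3.07) in AAA_14 and 2.44 (2.25 to 2.64) in AAA_7. Tmem176b had 241, 3699 and 16652 UMIs (40.3, 284 and 326 CPM), with ratios of 3.02 (2.84 to 3.21) and 2.81 (2.63 to 3.01). In AAA_14, 1574 cells held both, which is 88.3% of the Tmem176a-positive and 82.2% of the Tmem176b-positive cells. After thinning, Tmem176b was found in 2.13%, 13.4% and 17.4% of cells. Above AAA_7, AAA_14 was higher by 0.20 (0.15 to 0.25) for Tmem176b, and this order turned with a mitochondrial limit of 20% (-0.015, -0.066 to 0.036) and with none (-0.06, -0.11 to -0.01).

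In both libraries titled AAA, most molecules of the Tmem176 pair came from phagocyte-like cells, the macrophages and monocytes. In AAA_14, Tmem176b was at 861 CPM in phagocyte-like cells, 544 in cluster 20, 516 in stromal-like cells, 419 in DC-like cells, 130 in T-like cells and 10.8 in B-like cells. Phagocyte-like cells made up 1.13%, 15.1% and 20.7% of the cells of Sham, AAA_7 and AAA_14. Cluster 5, a macrophage-type cluster led by Mmp12, Spp1 and Arg1, was 0%, 16.8% and 1.66%. Both shares were higher in the libraries titled AAA than in Sham, as was the level over all cells. The share of cluster 5 was lower in AAA_14 than in AAA_7, whereas the level was higher. The part of these shares in the level was not tested. Within phagocyte-like cells AAA_14 was above AAA_7 by 0.51 (0.43 to 0.60) for Tmem176a and 0.31 (0.24 to 0.38) for Tmem176b. The Cd4 gate shows the same source: phagocyte-like cells held 80.5% of its Tmem176b UMIs in AAA_7 and 70.1% in AAA_14, and T-like cells 6.89% and 10.2%.

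The pair was also found in T-like cells, and there above all in cluster 18. T-like Tmem176a was at 19.2, 58.5 and 127 CPM, log2 ratios over Sham of 2.71 (2.31 to 3.17) in AAA_14 and 1.60 (1.11 to 2.12) in AAA_7. AAA_14 was above AAA_7 by 1.11 (0.84 to 1.41). In AAA_14, 94.4% of the 89 cells of cluster 18 had a Tmem176a UMI and 91.0% a Tmem176b UMI, against 21.9% and 23.4% of cluster 7. Without cluster 18 the ratios of AAA_14 over Sham were 3.42 (2.68 to 4.39) for Tmem176a and 3.30 (2.60 to 4.19) for Tmem176b, as large as with it. Among Trdc/Cd163l1 cells, Tmem176b was found in 1 of 22 in Sham (4.55%), 49.0% in AAA_7 and 72.9% in AAA_14.

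Within T-like cells all 8 genes were higher in both libraries titled AAA than in Sham. In AAA_14 against Sham 8 of 8 were at least 2-fold higher, where 26.2% of the 11714 genes measured there were, and 0 of 8 lower, against 3.28%. In AAA_7 against Sham it was again 8 of 8 and 0 of 8, against 26.1% and 3.75% of 10406 genes. The median log2 ratio of the 8 was 2.84 and 2.53, against 0.48 and 0.48 over all genes, so that the lowest of them, Il17ra at 1.11 and 1.17, stood 0.63 and 0.69 above the typical gene. Between the libraries titled AAA, 3 of 8 were at least 2-fold higher in AAA_14 (Il17a at 1.03, Ccr6 at 1.04 and Tmem176a at 1.11) against 4.93% of genes, and 0 of 8 lower, against 5.39%. All 3 sit just past the 2-fold line, and with finer clusters (a resolution of 2) none of the 8 passed it. The T-like cells of Sham were mostly of the naive type, as given above.

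**Figure D4:**
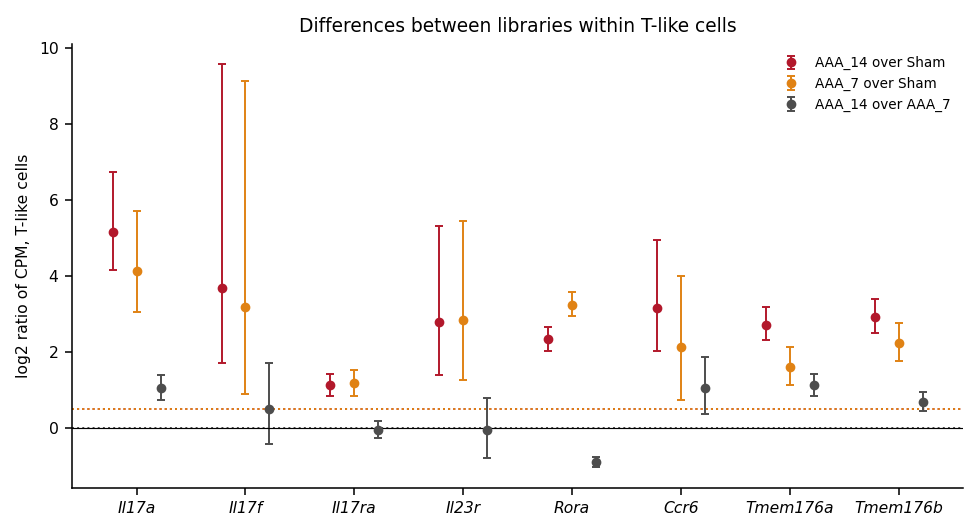
Log2 ratios of CPM between libraries within T-like cells for the 8 genes (bars: 95% intervals for counting error, dotted lines: the median of all genes in the same comparison). All 16 ratios over Sham lie above the median of all genes, and Rora is the gene whose AAA_14 over AAA_7 ratio, -0.91, is farthest below 0.

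Most Il17a-positive AAA_14 cells also held Rora and the Tmem176 genes, and fewer held Il23r, Ccr6 or Il17f, which were also found in fewer of the T-like cells without Il17a. Rora was found in 54 of the 67 Il17a-positive cells (80.6%, 69.1 to 89.2%) and in 30.9% of 892 T-like cells without an Il17a UMI. Tmem176b was found in 57 (85.1%, 74.3 to 92.6%) against 18.05%, and Tmem176a in 54 (80.6%) against 16.9%. The 67 cells include 14 outside T-like clusters, some of them DC-like or phagocyte-like, classes with more of the Tmem176 genes than T-like cells. In the 53 T-like positive cells alone, Rora was found in 47 (88.7%). Rora and the Tmem176 genes were common in positive cells of both gates. All 32 Trdc/Cd163l1 cells and 17 of 21 Cd4 cells with Il17a held Rora, and 29 of 32 and 18 of 21 held Tmem176b. In the Il17a-negative T-like cells of the same gates Tmem176b was found in 72.9% of 48 Trdc/Cd163l1 cells and in 17.8% of 409 Cd4 cells.

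Il23r and Ccr6 were spread unevenly over the gates. Il23r was found in 17 Il17a-positive cells (25.4%) against 3.92% of Il17a-negative T-like cells. Of the positive cells with Il23r, 14 were Trdc/Cd163l1 cells and 2 Cd4 cells. For Ccr6 the count was 12 cells (17.9%) against 7.51%, with 4 and 7 in these gates. Il17f was found in 6 cells (8.96%) against 0.785%. In the 53 T-like positive cells alone, Il23r was found in 26.4%, Ccr6 in 18.9% and Il17f in 9.43%. Il17ra was in 34 of the 67 (50.7%) and in 45.2% of Il17a-negative T-like cells, and the intervals make no difference visible at this number of cells. Cd8a, a gene of cytotoxic T cells, was detected in 0 of the 67, a count that allows a share with a UMI of up to 4.48%, and in 26.6% of Il17a-negative T-like cells. In AAA_7, 16 of 22 Il17a-positive cells held Rora, 13 Tmem176b, 11 Tmem176a, 4 Il23r and 4 Ccr6.

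The genes with the largest ratio of CPM between Il17a-positive and Il17a-negative T-like cells of AAA_14 were Bcl2a1a (4.54), a gene of the BCL2 survival family, Trdv4 (4.38), a delta chain variable segment, Tns4 (4.18), Cd163l1 (3.91), Trdc (3.82), Blk (3.50), a kinase of gamma-delta 17 cells and B cells, Abi3bp (3.50), Gm36723 (3.45), Tcrg-C1 (3.402) and Ly6g5b (3.36). Positive cells in and outside the Trdc/Cd163l1 gate differed in their T cell genes. Those outside it include DC-like, B-like, phagocyte-like and plasma cell-like cells and cells of cluster 17. The part of these cells in the differences was not tested. Tcrg-C4 (51 UMIs), Trdv4 (38 UMIs) and the potassium channel gene Kcnk1 (31 UMIs) were found in the 32 Trdc/Cd163l1 cells and at 0 UMIs in the 35 others. Zbtb16, the transcription factor of innate-like lymphocytes, was 36 against 1 UMI, a log2 ratio of 5.51 (3.50 to 11.41), and Blk 5.04 (4.19 to 6.19). In the other direction Cd6 (119 UMIs in 25 of 35 cells), a T cell surface receptor, Slamf6 (33 UMIs) and Ubash3a (30 UMIs) were at 0 in Trdc/Cd163l1 cells, as were Pld4, Ms4a4c and Rnase6, genes of dendritic cells and monocytes. S100a8, S100a9, Ighg1, Igkc, Slpi and Jchain also met the rule, but between 94.4% and 99.6% of their UMIs lay in 1 cell each. Trdc and Cd163l1 themselves set the gate, and Trdv4 is a segment of the same delta chain as Trdc.

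Across the 28 clusters, pooled over libraries, the pattern of each gene was compared with that of every other gene by Pearson's r of log2(CPM + 10), as a description over clusters that share libraries. Il17a was most like Aqp3 (0.905), B4galnt4 (0.874) and Crmp1 (0.865), and among the members most like Il17f (0.841) and Il23r (0.744). Il23r was most like Kcnk1 (0.969), Tcrg-C1 (0.950) and Trdv4 (0.944). For Rora the nearest were Podnl1 (0.909), Cish (0.902) and Tnfsf11 (0.901), and for Ccr6 Pik3r4 (0.845), Ddx25 (0.842) and Coq8a (0.828). Il17ra was nearest to Sorl1 (0.839), Pag1 (0.807) and Diaph1 (0.798). Tmem176a and Tmem176b were alike at 0.987, with Ggh (0.868 and 0.878), Zfp467 (0.865 and 0.871) and Vwa5a (0.850 and 0.852) next. Il17a and Il17ra had an r of 0.08, and cluster 18, with 601 CPM of Il17a in AAA_14, had 103 CPM of Il17ra.

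The following lists hold other genes of the pathway, and the shares of all genes are given beside their counts. UMI counts of single genes are not scaled to the library totals (5986174, 13035383 and 51007459 UMIs), so they are not levels. Of the other interleukin 17 cytokines, Il17b, Il17c and Il25 had 0 UMIs in every library, and Il17d had 6, 3 and 28. With so few UMIs, no order of the libraries was read from Il17d. Of the 5 receptor subunits, 2 were at least 2-fold higher in AAA_14 than in Sham over all cells, against 29.9% of all genes, with a median of 0.96. These were Il17rc (1, 15 and 83 UMIs, log2 ratio 2.71, which rests on 1 Sham UMI), the partner of Il17ra for interleukins 17A and 17F, and Il17re (5, 27 and 184 UMIs, 1.98), the partner for interleukin 17C. Their cells differed. In AAA_14, 35 of the 83 Il17rc UMIs lay in stromal-like cells (26.1 CPM) and 23 in T-like cells (3.20 CPM), while T-like cells held 153 of the 184 Il17re UMIs. Il17re was found in 29 of the 67 Il17a-positive cells.

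Among 27 genes of the type 17 lymphocyte programme, 20 were at least 2-fold higher and 0 lower in T-like cells of AAA_14 than of Sham, with a median of 2.43. In AAA_7 it was 20 and 0 of 26, with a median of 1.95, and between AAA_14 and AAA_7 3 and 0 of 27, with a median of 0.01. In these 3 comparisons 26.2%, 26.1% and 4.93% of all genes were at least 2-fold higher in T-like cells, and 3.28%, 3.75% and 5.39% lower. The largest ratios of AAA_14 over Sham were those of Il1r1, the interleukin 1 receptor (1, 40 and 151 UMIs, 5.17), Il12rb1, the partner of Il23r (1, 38 and 149 UMIs, 5.15), Il17re (3.60), the chemokine receptor gene Cxcr6 (3.55), S100a4 (3.11), the transcription factor gene Sox13 (3.06) and Blk (3.05). The ratios of Il1r1 and Il12rb1 rest on 1 Sham UMI each, so their size and rank are uncertain. Il21, a T cell cytokine, had 5, 1 and 83 UMIs, the largest ratio of AAA_14 over AAA_7 in the list (3.94), which rests on 1 AAA_7 UMI. Blk followed at 1.93. Of 8 gamma-delta T cell genes 7 were at least 2-fold higher and 1 lower in T-like cells of AAA_14 than of Sham (median 1.91), led by Cd163l1 (4.42) and Tcrg-C1 (3.15). Over all cells it was 2 higher and 2 lower (median -0.33), against 29.9% and 8.54% of all genes. In T-like cells without cluster 18 it was 1 higher and 2 lower of 7 measured (median 0.08), against 24.6% and 3.14%.

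Of 11 genes that induce or restrain type 17 cells, 9 were at least 2-fold higher over all cells in AAA_14 than in Sham (median 1.37) and 9 of 10 in AAA_7 (median 2.98), against 29.9% and 26.8% of all genes. In AAA_14 against AAA_7, 2 of 11 were higher and 4 lower, against 11.2% and 6.09%. Il23a, the specific subunit of interleukin 23, had 20, 316 and 272 UMIs, and neutrophil-like cells held 90.2% of them in AAA_7 and 91.2% in AAA_14. Il12b, its shared subunit, had 0, 44 and 514 UMIs, of which DC-like cells held 61.1% in AAA_14, in 16 cells. Il1b had 1595, 40445 and 41128 UMIs, mostly in neutrophil-like cells (51.1% in AAA_7 and 68.4% in AAA_14). Scaled to the library totals, Il23a and Il1b were lower in AAA_14 than in AAA_7, and Il23a in AAA_14 was less than 2-fold above Sham. Neutrophil-like cells made up 9.15%, 22.3% and 16.2% of the cells of Sham, AAA_7 and AAA_14. The part of these shares in the levels over all cells was not tested.

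Of 17 genes of signalling below the receptor, 3 were at least 2-fold higher and 0 lower in AAA_14 than in Sham (median 0.38), 6 and 1 in AAA_7 (median 0.76), and 0 and 4 between AAA_14 and AAA_7 (median -0.36). In these 3 comparisons 29.9%, 26.8% and 11.2% of all genes were at least 2-fold higher, and 8.54%, 10.3% and 6.09% lower. The 3 genes higher in AAA_14 than in Sham were Nfkbiz, a co-factor of interleukin 17 target genes (1.10 in AAA_14 and 2.34 in AAA_7), Nfkbia (1.12 and 3.12) and Cebpb (1.38 and 2.53). Traf3ip2, which encodes the adaptor Act1, was lower than in Sham by -0.55 and -1.23. Of 19 measured target genes 14 were at least 2-fold higher and 0 lower in AAA_14 than in Sham (median 2.75), 14 and 2 in AAA_7 (median 3.54), and 3 and 7 between AAA_14 and AAA_7 (median -0.77), against the same shares of all genes. Saa3, an acute phase gene, had 1, 18802 and 13757 UMIs, the neutrophil chemokine gene Cxcl1 had 1, 1971 and 4256, and Ccl2 had 21, 2445 and 11523. Scaled to the library totals, Saa3 and Cxcl1 were lower in AAA_14 than in AAA_7, while Ccl2 was higher. S100a8, the neutrophil calprotectin gene, differed from Sham by -0.03 in AAA_14, and S100a9 by -0.19. Many of these targets also answer to other signals. The shares of phagocyte-like cells and cluster 5 given above also differ between the libraries, and their part in these ratios was not tested. A list of 10 genes raised by tissue dissociation had 3 at least 2-fold higher and 0 lower in both libraries titled AAA over Sham, with medians of 0.01 in AAA_14 and 0.53 in AAA_7. The 3 higher genes are near the shares of all genes (29.9% and 26.8%).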

How the data were processed

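Single cells of 3 libraries were counted on a 3' v2 chemistry, per the labels' protocols. The values are UMI counts per gene and cell barcode that the authors deposited, not normalised, and per the file headers version 6.1.2 of Cell Ranger wrote them. Seurat and the build mm10 are also listed, per the submitters' processing notes. Any filter applied before deposit is not given in the sources used here. The 8 genes and all gene lists were chosen with earlier results of these data known. Barcodes with at least 200 genes and at most 10% mitochondrial UMIs were kept. Counts were summed per library, gate and class, scaled to CPM, and compared as log2 ratios with 0.5 counts added and an exact conditional binomial interval (95%). Shares have exact Clopper-Pearson intervals, levels Poisson intervals, and a count of 0 was read as allowing up to 3 counts. With 1 library per group no test was made. Genes counted as measured had 10 or more UMIs over both libraries. Cells were clustered with scanpy 1.11.5 (2000 variable genes without the 8 genes and the type 17 list, 30 components, 15 neighbours, Leiden resolution 1), which gave 28 clusters, 25 of them named from at least 3 markers. Genes of a list were mainly named for having the most UMIs (up to 4) or for differing at least 4-fold with at least 30 UMIs. Others were named as the up to 10 with the largest ratio in a contrast, or as the 3 most alike in pattern. A named gene therefore need not differ 4-fold. Positions came from GENCODE (GRCm38), matched to 32158 of 32285 gene IDs, and promoter windows from RefSeq (GRCm38.p6). Scrublet's own threshold marked 1, 0 and 0 cells and had not worked, so doublets stayed in and were removed only as an alternative (12, 83 and 224 cells, 0.8% per 1000 cells). Other mitochondrial limits, gene minimums, thinning, clusterings, gates and scalings (edgeR 4.0.16) were tried. The summing and intervals were checked on simulated data.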

Additional observations from a re-analysis of the deposited data

Results flagged for a closer look

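Barcodes that the filters removed (2550 in Sham, 267 in AAA_7 and 4822 in AAA_14) entered no main comparison, only those with other filter limits, and some of the genes were found in them more often than in the removed barcodes of Sham. Il17ra was found in 23.1% of the removed AAA_14 barcodes, against 13.6% in Sham. Ccr6 was found in 10.1% of the removed AAA_14 barcodes, against 6.04%. Tmem176a was found in 13.9% of those of AAA_7 and 13.2% of those of AAA_14, against 1.45%. Tmem176b was found in 15.4% and 13.3%, against 1.57%. The removed barcodes had median depths of 2342, 940 and 3152 UMIs. Il17a was found in 0.275%, 0.375% and 0.622% of them.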

How the results depend on the processing

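Of 460 values under alternative settings, 365 were classed as the same, 89 as moved and 6 as turned in direction. For ratios and shares, the same meant inside the interval of the main value. Where that interval is wide, this class does not show that the size was kept. Where it spans 0, a change of sign was not counted as a turn. The 6 values that turned were all set by the mitochondrial limit. At 5% the log2 ratio of AAA_14 over AAA_7 was -0.52 for Il17a and -0.91 for Ccr6, and that of AAA_14 over Sham -1.64 for Il17f and -0.43 for Il17ra. For Tmem176b, AAA_14 over AAA_7 was -0.015 at 20% and -0.057 with no limit. The cause was not tested. The share of cells with Il17a in AAA_14 was 0.884% at a limit of 5%, 0.958% with no limit, 0.649% thinned, 0.927% with 2 UMIs asked and 5.61% in T-like cells only (2.80% in AAA_7). In Sham it was 0% at 5% and 0% thinned. The Trdc/Cd163l1 share of Il17a UMIs in AAA_14 was 40.9% at 5%, 44.1% with the Cd4 gate first, 54.9% without the highest cell, 61.0% in T-like cells only and 55.1% without cluster 17, and in AAA_7 45.5% thinned and 49.4% in T-like cells only. After thinning, the Il17a ratio over Sham was 5.55 in AAA_14 and 4.78 in AAA_7, set by the 0.5 counts added to 0 Sham UMIs and no bound. At a clustering resolution of 2, 0 of the 8 genes were at least 2-fold higher in T-like cells of AAA_14 than of AAA_7. Over all genes, a minimum of 50 UMIs left 991 higher and 578 lower genes between AAA_14 and AAA_7 (1812 and 983 as reported), 680 lower than Sham in AAA_14 (1367) and 811 in AAA_7 (1414), and no minimum gave 2355, 4072 and 3272 lower genes, since other numbers of genes were counted. The alternatives on T-like cells only, on cluster 17 and on doublets within T-like cells were chosen after seeing the data. The number of cells limits Sham most (1235 cells, where a count of 0 allows a share with a UMI of up to 0.243%), and depth limits AAA_7 most (median 2581 UMIs per cell). No paired analysis was possible because each group is 1 library.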
